A study of Mus musculus with 19 samples.

Results

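The comparison described here is that of ICAM-1 null with wild type mice after an airway challenge with bacterial particles. Its members are the 10 libraries that the labels give to exposed mice, of 19 in the series: 5 from ICAM-1 null and 5 from wild type (C57Bl/6J) animals, each 1 pellet of cells rinsed from the lung by bronchoalveolar lavage. All mice were female and 7 to 8 weeks old. All 10 had received 100 µL of Staphylococcus aureus particles, at 2.27 mg/mL, by aspiration through the mouth under isoflurane 1 h before lavage. The particles carry pHrodo, a dye that brightens in acid compartments. The labels call the cells alveolar macrophages and describe no sort or gate. The genetic background of the null mice is not stated in the labels, nor is it stated that the controls were littermates, so loss of ICAM-1 and other differences between the lines cannot be told apart in any value below. Mice are numbered 1 to 5 in each exposed group with no litter or day attached to a number. The p-values therefore cover the spread among mice within groups, whatever its source, estimated over all 19 libraries. The other 9 libraries come from naive mice of both genotypes (4 wild type and 5 null) and share no library with the comparison. They enter its test only through the estimate of that spread.

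ICAM-1 is an adhesion molecule of the immunoglobulin family. It is bound by the beta 2 integrins LFA-1 (Itgal with Itgb2) and Mac-1 (Itgam with Itgb2), and inflammatory signals through NF-kB raise its gene on endothelium, epithelium and macrophages. Alveolar macrophages live in the airspace, take up inhaled particles through scavenger, complement and Fc receptors, degrade them in phagolysosomes, and release cytokines that call in neutrophils. They are usually poor presenters of antigen to T cells, with little MHC class II on their surface.

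Summed estimated counts per library ran from 42.6 to 60.96 M for the wild type group and from 56.99 to 66.3 M for the null group. Levels below are TPM (a share of transcripts per length, which sums to the same total in each library), with SDs over 5 libraries. Fold changes are on the log2 scale, null minus wild type, from edgeR's quasi-likelihood fit of the estimated counts, and a gene is called at an adjusted p under 0.05. In a principal component analysis of these 10 libraries alone, component 1 (23.8% of variance) separated the genotypes. Component 2 carried 12.2%, and wild type library 5 and null library 3 stood apart on it. Wild type libraries 2 and 4 had the highest sums of red cell genes. Genes that lose their call without wild type libraries 2 and 4, or without wild type library 5 and null library 3, are named with the results they touch.

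The pellets had the profile of alveolar macrophages in both genotypes. Chil3, a secreted chitinase-like protein of these cells, stood at 14622 ± 1438 TPM in wild type and 14476 ± 1595 TPM in null mice. The scavenger receptor Marco and the lectin Siglecf were present in every library, and the summed level of 35 alveolar macrophage markers was 41840.0 to 48518 TPM in wild type and 46406 to 50885 TPM in null libraries. Markers of other cells were measured beside them. The neutrophil granule genes Elane and Camp were at 0 in all 10 libraries, Ly6g did not exceed 0.362 TPM, and the neutrophil list summed to 426 to 547 TPM in wild type and 428 to 527 TPM in null mice. Its sums in naive mice were lower, at 128 to 175 TPM in wild type and 230 to 269 TPM in null libraries. Of its 14 tested genes, 4 were higher and 3 lower in exposed null mice (50% called). B cell markers summed to 1.32 to 6.22 and 1.52 to 5.54 TPM, with Cd79a at 0 in 2 wild type libraries. T and NK cell markers summed to 581 to 719 TPM in wild type and 480.3 to 539 TPM in null libraries, which did not overlap, and 1 of their 22 tested genes was called (4.55%, against 8.48% over all genes). For monocytes and interstitial macrophages the sums were 797 to 1125 and 734 to 775 TPM, again without overlap. Their means were 910 and 749 TPM. Fn1, a gene of that list described below, differed by more than these means (255 and 51.8 TPM). The gap between the sums therefore does not show a difference in the rest of the list. For dendritic cells the sums were 607 to 726 and 515 to 718 TPM.

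RNA of airway and alveolar epithelium and of red cells was lower in the null pellets. The epithelial list summed to 1783 to 4171 TPM in wild type and 1028 to 1724 TPM in null libraries, with 10 of 27 tested genes lower, 1 higher and a median log2 fold change of -0.73, where all 20501 genes tested had a median of -0.005. The share called was 40.7%, against 8.48% over all genes. Scgb1a1, the secretoglobin of club cells, was at 782, 1103, 707, 1215 and 2525 TPM in the 5 wild type libraries and at 516, 365, 431, 435 and 451 TPM in the null libraries (-1.52, SE 0.26, adjusted p = 4.7e-04). Every wild type value lay above every null value, and wild type library 5 stood far above the other wild type libraries. The surfactant gene Sftpa1 was lower (-1.02), as was Tppp3 of ciliated cells (-0.99), while Sftpc of alveolar type 2 cells was not called (133 ± 34.8 and 91.1 ± 23.5 TPM, -0.51, SE 0.199, adjusted p = 0.14). Epcam, an adhesion protein of epithelia, was the member that was higher, at 54.1 ± 7.44 TPM in wild type and 110.0 ± 12.1 TPM in null mice. Without wild type libraries 2 and 4 the list held 1 higher and 4 lower.

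The red cell and platelet list summed to 379.6 to 2413 TPM in wild type and 139.5 to 358 TPM in null libraries, and 6 of 10 tested genes were lower (60% called, against 8.48% over all genes). Beta globin Hbb-bs was at 251, 748, 105, 676 and 309 TPM in wild type and 54.9, 80.6, 29.3, 94.3 and 36.6 TPM in null libraries (-2.77, SE 0.51, adjusted p = 8.9e-04). Alpha globin Hba-a1 (-2.57) and Alas2, the first enzyme of haem synthesis in red cells (-2.97), were also lower. Without wild type libraries 2 and 4 the log2 fold change of Alas2 was -2.09 and it was no longer called (adjusted p = 0.075). In naive mice the epithelial sums were also apart (1225 to 1567 and 792 to 1071 TPM), and the red cell sums overlapped (151 to 424 and 111 to 365 TPM). In bulk pellets, fewer cells of a type and less RNA per cell cannot be told apart. Every gene was also fitted with the mean levels of the epithelial and the red cell list as covariates, called the marker-adjusted fit below, and the sums of both lists did not overlap between the exposed groups. Of 121 called genes with values in the text, 56 kept their call in that fit and 65 did not, and those that lost it are named with their group. The 65 include the 3 epithelial and 3 red cell genes named as lower above. Those genes belong to the lists used as covariates, so that fit cannot test them. Beyond that fit, the part of these cells in the differences was not tested. A call lost there does not by itself mean a smaller difference. Icam4, Csf2 and H2-DMa lost theirs with estimates larger in size (2.04, 3.19 and -0.41, against 1.53, 1.92 and -0.26). Ccl2 and Cxcl3 lost theirs with smaller ones (-1.104 and -0.41, against -1.699 and -0.66).

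**Figure D1:**
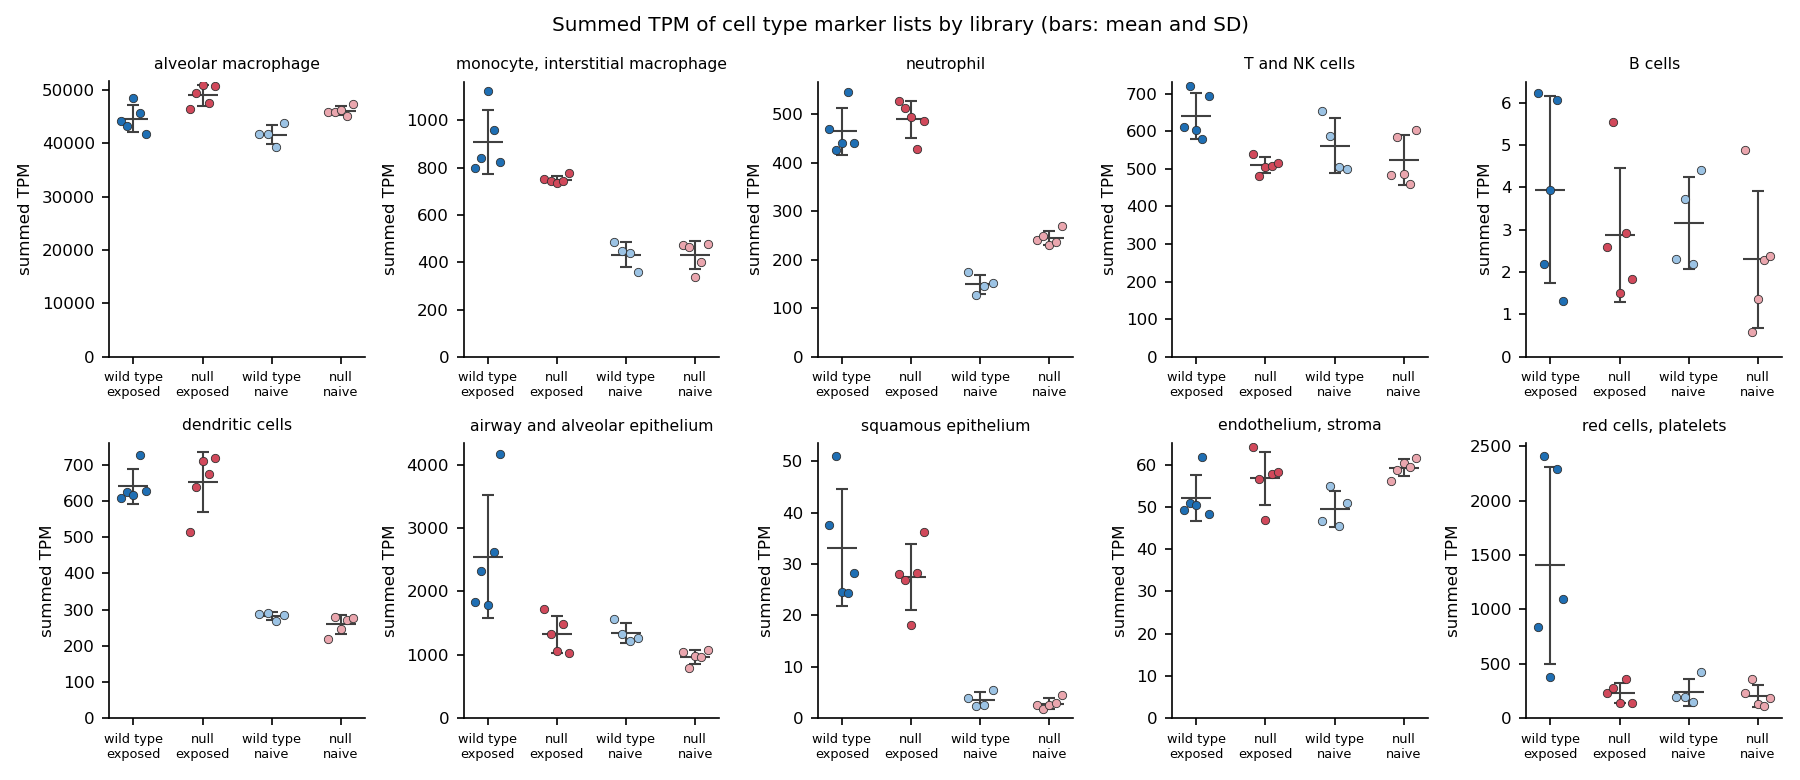
Summed TPM of 10 lists of cell type markers in each library, for exposed and naive mice of both genotypes (points are libraries, bars the mean and SD, each vertical axis starts at 0). Epithelial and red cell sums of the 5 exposed null libraries lie below those of the 5 exposed wild type libraries, while neutrophil and dendritic sums overlap between the exposed genotypes.

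The targeted gene was the gene with the lowest fold change of all those that met the rule for naming. Icam1 (ENSMUSG00000037405.9, chromosome 9, 20927281 to 20940113) stood at 962, 749, 1079, 982 and 722 TPM in the 5 exposed wild type libraries and at 13.2, 9.71, 9.48, 11.6 and 9.91 TPM in the 5 exposed null libraries. All null values lay far below all wild type values (-6.34, SE 0.21, adjusted p = 7.5e-15). Naive mice had 74.6 ± 10.7 TPM (n = 4) in wild type and 8.13 ± 2.63 TPM (n = 5) in null libraries. The wild type level was thus far above its naive value after exposure, while the residual signal in null mice was of like size in both conditions. The genotype difference in exposed mice was the larger one, by -3.21 on the log2 scale (interaction, edgeR adjusted p = 6.6e-07).

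The neighbours and relatives of Icam1 are given next. Icam4 (ENSMUSG00000001014.7, chromosome 9, 20940669 to 20941891), the small family member best known from red cells, was higher in null mice at 5.44, 3.08, 4.71, 5.44 and 5.34 TPM against 1.72, 2.51, 1.98, 1.39 and 0.959 TPM, with no overlap (1.53, SE 0.33, adjusted p = 0.0043). Icam5, known from neurons, was at 1.09 ± 0.334 and 0.734 ± 0.236 TPM and was not called (-0.53, SE 0.23, adjusted p = 0.19). Icam2, an endothelial and leukocyte member, was at 2.19 ± 1.09 and 2.05 ± 0.613 TPM (adjusted p = 0.95), and its sign changed with the settings.

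The integrin genes that encode the receptors of ICAM-1 were called in part. Itgb2, the shared beta 2 chain, was at 697, 675, 899, 698 and 595 TPM in wild type and 619, 495, 568, 522 and 572 TPM in null libraries. Null values were lower on the whole, with the lowest wild type library inside the null range, and the log2 fold change was -0.32, SE 0.079, adjusted p = 0.013. Itgal, the alpha chain of LFA-1, had 110.3 ± 22.5 TPM in wild type and 109 ± 14.2 TPM in null mice (0.079, SE 0.087, adjusted p = 0.71). Itgam, the alpha chain of Mac-1, is low in these cells, at 1.99 ± 0.575 and 1.78 ± 0.872 TPM, and was not called (adjusted p = 0.86). Itgad, the alpha D chain that also pairs with beta 2, was higher at 21.96, 15.1, 28.4, 15.996 and 24.5 TPM in null against 8.47, 7.85, 8.81, 7.87 and 4.87 TPM in wild type libraries (1.43, SE 0.17, adjusted p = 6.1e-06). No null value reached down to the wild type range.

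Of 41 tested genes of adhesion partners and linkers, 5 were higher, 3 lower and 33 not called, or 19.5% called. Over all genes tested 8.48% were called, and 12.6% of those with a mean of at least 10 TPM. Fibronectin, Fn1 (ENSMUSG00000026193.16, chromosome 1, 71624679 to 71692359), a matrix protein that macrophages also secrete, was at 221, 285, 358, 242 and 167 TPM in wild type and 85.3, 46.6, 42.98, 34.6 and 49.7 TPM in null libraries, with no overlap (-2.16, SE 0.18, adjusted p = 2.0e-08). Itga5, the alpha chain of its receptor, was higher in null mice (373 ± 28.5 against 273 ± 39.9 TPM, 0.496, SE 0.07, adjusted p = 4.9e-05). Vcam1, another immunoglobulin-family ligand of integrins, was low in all libraries but higher in null mice at 4.94, 10.4, 3.86, 6.42 and 3.99 TPM against 1.37, 0.759, 1.38, 1.38 and 1.36 TPM (2.26, SE 0.38, adjusted p = 4.0e-04). Fn1, Itga5 and Itgad kept their calls in the marker-adjusted fit, where the list held 2 higher and 1 lower, and Itgb2, Icam4 and Vcam1 lost theirs. In that fit Itgb2, Icam4 and Vcam1 gave -0.45, 2.04 and 2.23 (edgeR adjusted p = 0.12, 0.11 and 0.14).

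**Figure D2:**
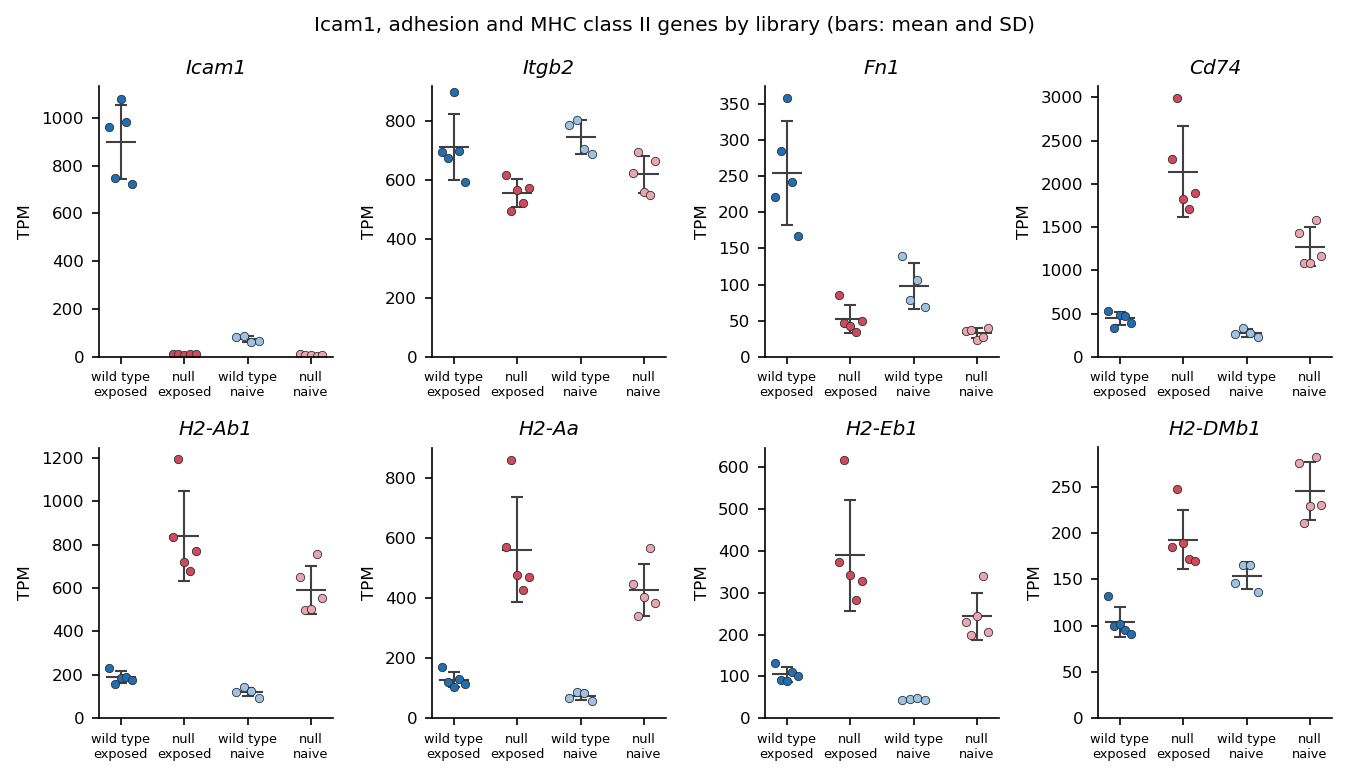
TPM of Icam1, Itgb2, Fn1 and 5 MHC class II genes in each library by genotype and exposure (points are libraries, bars the mean and SD, axes start at 0). Icam1 is highest in exposed wild type mice, Fn1 is lower and the class II genes are higher in exposed null than in exposed wild type mice, and Itgb2 overlaps.

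Across the transcriptome, 1738 of 20501 genes tested were called, 909 (4.43%) higher and 829 (4.04%) lower in exposed null mice, and 555 of them differed by at least 1 on the log2 scale (322 higher, 233 lower). The 5 libraries of each group did not overlap in TPM for 1273 genes (6.21%). The count was 1091 without wild type libraries 2 and 4, and 351 with the epithelial and red cell covariates, whose sums do not overlap between the exposed groups. Leaving out 1 exposed library at a time gave 1441 to 1673 calls, and a fit of the 10 exposed libraries alone gave 1237.

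The 12 named genes with the highest fold changes include enzymes, carriers and a transcription factor. Aass, the first enzyme of lysine breakdown, was at 1.47, 1.64, 1.27, 1.22 and 1.16 TPM in wild type and 63.98, 63.2, 69.7, 55.4 and 64.6 TPM in null libraries (5.58, SE 0.28, adjusted p = 6.7e-12). Spic, a transcription factor of iron-recycling macrophages, was at 0.272, 0.798, 0.818, 0.797 and 1.43 TPM and 24.5, 31.5, 30.01, 23.9 and 20.4 TPM (4.998, SE 0.35, adjusted p = 1.8e-09). Slc22a4, a carrier of ergothioneine, stood at 1.15 ± 0.5004 TPM in wild type and 24.3 ± 1.94 TPM in null mice. All 3 genes were close to absent in wild type and present in every null library. Lyg1, a lysozyme-like gene, was at 0 in every wild type library and at 1.54, 2.29, 1.35, 1.56 and 0.906 TPM in null libraries, which is at least 2.89-fold higher against a floor of 12 counts per library. The others were Apoc2 (an apolipoprotein), Slc10a6, Vmn2r26, Klra17, Orm2 (an acute phase protein), Cplx1, Kcnj15 (a potassium channel) and Lyrm7, with log2 fold changes of 3.17 to 5.08. Apoc2, Klra17 and Cplx1 lost their calls in the marker-adjusted fit, and Apoc2 also without wild type library 5 and null library 3 (4.51, adjusted p = 0.056).

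Below Icam1, the other named genes with the lowest fold changes ranged from -6.23 to -3.17. Skint3, of an immunoglobulin-like family, was at 6.26, 4.54, 3.92, 4.23 and 2.69 TPM in wild type and did not exceed 0.0955 TPM in null libraries (-6.23, SE 0.42, adjusted p = 1.2e-09). Coro2b, a coronin that binds actin, was at 12.2, 10.7, 15.7, 10.05 and 11.02 TPM in wild type and 0.194, 0.344, 0.321, 0.451 and 0.224 TPM in null libraries (-5.17, SE 0.198, adjusted p = 6.7e-14). Kazn, a junction protein, Adamts2, a procollagen protease, Ppfia4, a liprin, and Lipf, a lipase, showed the same pattern, with null means of 0.222, 0.254, 0.101 and 1.26 TPM against 6.02, 5.52, 3.36 and 13.7 TPM. Creg2 and Scml4 were likewise lower (-3.22 and -3.17). Also of this group were Jph1 (1.74 to 0.0621 TPM) and Dppa3 (7.45 to 0.328 TPM), which had almost no signal in naive mice of either genotype. Jph1, Dppa3 and Scml4 lost their calls in the marker-adjusted fit.

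MHC class II genes were higher in exposed null mice. These genes encode the alpha and beta chains that show peptides to CD4 T cells, the invariant chain Cd74 that guards the groove, and the H2-DM and H2-O proteins that edit its peptides, and they are switched on together by the coactivator CIITA. Cd74 was at 532, 337, 485, 472 and 395 TPM in wild type and 2290.1, 2992, 1826, 1705 and 1888 TPM in null libraries, 4.82-fold in means (2.301, SE 0.16, adjusted p = 2.5e-09). H2-Ab1 (ENSMUSG00000073421.7, chromosome 17, 34476663 to 34488393) was at 232, 159, 185, 191 and 177 TPM and 836, 1193, 719, 678 and 772 TPM (2.18, SE 0.16, adjusted p = 4.0e-09). H2-Aa was at 170.5, 121, 105, 130.0 and 115 TPM and 568, 859.6, 476, 428 and 469.9 TPM (2.15, SE 0.19, adjusted p = 9.4e-08). In all 3 genes the groups were apart and null library 2 was the highest.

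H2-Eb1 was at 133, 92.7, 89.3, 111 and 100.1 TPM in wild type and 373, 618, 342, 283 and 328 TPM in null libraries (1.88, SE 0.19, adjusted p = 3.6e-07). Among the editing genes, H2-DMb1 (104 ± 16.1 to 193 ± 31.98 TPM, 0.93, SE 0.12, adjusted p = 1.4e-05) and H2-Oa (2.95 ± 2.05 to 8.88 ± 1.82 TPM, 1.58, SE 0.35, adjusted p = 0.0047) were higher. H2-DMa was slightly lower (411 ± 17.5 to 335 ± 31.01 TPM, -0.26, SE 0.075, adjusted p = 0.0298), and it lost its call without wild type library 5, or null library 1, 4 or 5 (-0.21, -0.22, -0.27 and -0.24, edgeR adjusted p = 0.0895, 0.083, 0.053 and 0.074). Ciita itself was at 1.404, 1.39, 1.76, 2.44 and 1.14 TPM and 4.56, 6.16, 2.15, 3.86 and 4.34 TPM, higher in the null mean but with 1 null library inside the wild type range, and was not called (1.07, SE 0.37, adjusted p = 0.084). Without that library, null library 3, Ciita was called (1.25, adjusted p = 0.039), as it was in the exposed libraries alone (1.06, edgeR adjusted p = 0.014). Limma on log2(TPM + 1) and log2(TPM + 0.1) called it too (0.96 and 1.29, adjusted p = 0.034 and 0.027). In naive mice Ciita was higher in null libraries (2.14, edgeR adjusted p = 0.0016). In the list of class II and costimulation genes, 6 of 18 were higher and 1 lower, or 38.9% called against 8.48% over all genes. Cd74, H2-Ab1, H2-Aa and H2-Eb1 kept their calls in every setting tried, while H2-DMb1, H2-Oa and H2-DMa lost theirs in the marker-adjusted fit (4 higher and 0 lower). Dendritic cells also carry much class II. Their list sums overlapped between the groups, Xcr1 did not exceed 1.34 TPM, and Flt3 was at 2.77 ± 0.837 TPM in wild type and 1.35 ± 0.409 TPM in null mice. The part of dendritic cells in the class II differences was not tested.

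Class II promoters are known for a shared X and Y box arrangement, and 4 of the members that differed are shown with these letters so that the common layout can be seen. The RefSeq promoter table (GRCm38.p6) held 7 of 10 class II genes looked up. H2-Ab1, Cd74 and Ciita were not among them. Capitals mark GNAAC, from the X box, followed after 10 to 40 letters by TGATTGG, the Y box (CCAATCA on the other strand). Each run is the 120 bases before the annotated start, 5′ to 3′ on the gene's strand.
H2-Aa: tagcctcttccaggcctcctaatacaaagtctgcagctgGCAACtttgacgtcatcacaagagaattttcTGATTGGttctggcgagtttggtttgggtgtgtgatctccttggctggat
H2-Eb1: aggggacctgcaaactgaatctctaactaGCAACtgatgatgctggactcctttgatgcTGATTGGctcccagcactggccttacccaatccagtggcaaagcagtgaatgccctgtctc
H2-DMb1: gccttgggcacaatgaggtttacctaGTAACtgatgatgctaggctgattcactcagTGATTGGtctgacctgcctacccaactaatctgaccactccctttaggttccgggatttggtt
H2-Oa: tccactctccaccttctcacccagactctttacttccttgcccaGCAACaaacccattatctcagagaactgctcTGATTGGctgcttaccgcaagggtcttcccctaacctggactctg
The stretches lie at chr17:34287824-34287943 (minus strand), chr17:34305747-34305866, chr17:34153071-34153190 and chr17:34092259-34092378 (plus strand). GNAAC began 81, 91, 94 and 76 bases before the start, and 26, 25, 26 and 26 letters separated it from TGATTGG. The pair, on either strand of the 250 bases before a start, was found in 5 of the 7 class II genes and in 0.715% of 32851 promoter windows, while TGATTGG alone was in 7.23%. H2-Ob, which was not called, held the pair too. H2-DMb2, also not called, held TGATTGG without it, and H2-DMa held no match in either of its windows, which says only that these letters are not there.

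MHC class I genes, which show cytosolic peptides to CD8 T cells, differed less. Of 22 tested, 5 were higher and 0 lower (22.7% called, against 8.48% over all genes), and 21 had a positive fold change (median 0.21). H2-D1 was at 2474, 2359.8, 2538, 2416 and 2305 TPM in wild type and 2795, 3084, 2866, 2703 and 2806 TPM in null libraries (0.28, SE 0.052, adjusted p = 0.0012). H2-K1 had 1910.0 ± 163 and 2409.9 ± 325 TPM (0.36, SE 0.079, adjusted p = 0.0047), with null library 2 above the rest. The number higher was 2 without wild type libraries 2 and 4, and H2-D1 and H2-K1 lost their calls in the marker-adjusted fit (0 higher and 0 lower).

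Cytokine genes differed in both directions. Of 36 tested, 4 were higher (Il18, Csf2, Csf3, Il6), 5 lower (Osm, Lif, Ccl2, Ccl7, Cxcl3) and 27 not called, with a median of -0.019. The share called was 25%, against 8.48% over all genes. The counts were 2 higher and 4 lower without wild type libraries 2 and 4, and 2 higher and 2 lower in the marker-adjusted fit, in which Osm, Lif, Csf3 and Il18 kept their calls and the other 5 lost them. Osm (ENSMUSG00000058755.4, chromosome 11, 4186420 to 4191026) encodes oncostatin M, an IL-6 family cytokine that acts on epithelium and stroma. It was at 151, 138, 231, 195 and 256 TPM in wild type and 37.8, 43.8, 34.2, 44.03 and 33.996 TPM in null libraries, 5.01-fold lower in means without overlap (-2.296, SE 0.17, adjusted p = 4.3e-09). Lif, its closest relative, was at 31.3, 36.6, 66.4, 61.1 and 69.4 TPM and 13.8, 12.9, 8.81, 14.9 and 13.9 TPM (-2.01, SE 0.21, adjusted p = 1.2e-06). Both family members were thus low in every null library. The difference in Osm exceeded that in naive mice (-0.69) by -1.61 (interaction, edgeR adjusted p = 0.0022), whereas for Lif the same test gave -1.33 (adjusted p = 0.098).

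Chemokines for monocytes were lower as well. Ccl2 was at 103, 104, 137, 186 and 179 TPM in wild type and 48.3, 50.8, 33.4, 50.7 and 29.8 TPM in null libraries (-1.699, SE 0.34, adjusted p = 0.0019). Ccl7, beside it in the genome, was at 23.04, 22.9, 25.1, 44.9 and 49.6 TPM and 11.5, 16.3, 8.005, 8.14 and 8.37 TPM (-1.64, SE 0.43, adjusted p = 0.019). Neither overlapped. The call of Ccl7 ended without wild type library 4 (-1.51, adjusted p = 0.051) or 5 (-1.41, adjusted p = 0.065), without wild type libraries 2 and 4 (-1.65, adjusted p = 0.067), and without wild type library 5 and null library 3 (-1.32, adjusted p = 0.12). With the marker covariates Ccl2 gave -1.104 (adjusted p = 0.53). Limma on log2(TPM + 0.1) called neither Ccl2 nor Ccl7 (-1.72 and -1.62, adjusted p = 0.092 and 0.10). Cxcl3, a neutrophil chemokine, was at 1211, 941, 1122, 1283 and 1325 TPM and 954, 691, 503, 578 and 869.6 TPM (-0.66, SE 0.16, adjusted p = 0.012), and the highest null library exceeded the lowest wild type library. Its difference was opposite in sign in naive mice (0.89, 6.08 to 11.02 TPM), with an interaction of -1.55 (adjusted p = 0.0074). The call of Cxcl3 was lost without wild type library 5 and null library 3 (-0.46, adjusted p = 0.085).

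Interleukin 6 and the colony-stimulating factors were higher in null mice. Il6 was at 42.7, 31.4, 45.8, 31.4 and 42.4 TPM in wild type and 104, 107, 46.04, 59.6 and 73.9 TPM in null libraries (1.16, SE 0.24, adjusted p = 0.0032). The lowest null library was just above the highest wild type library, and the call was lost without wild type libraries 2 and 4 (0.997, adjusted p = 0.053). Limma on log2(TPM + 0.1) did not call Il6 either (0.96, adjusted p = 0.12). Csf3, the granulocyte factor G-CSF, was at 7.75, 6.496, 5.18, 6.52 and 8.76 TPM and 20.8, 29.1, 15.9, 16.5 and 18.8 TPM (1.56, SE 0.23, adjusted p = 8.3e-05), clearly apart and called in every setting. Csf2, or GM-CSF, was at 1.38, 1.88, 2.66, 3.22 and 5.53 TPM and 12.3, 14.6, 2.75, 10.5 and 14.8 TPM (1.92, SE 0.54, adjusted p = 0.027). Null library 3 lay inside the wild type range, and the call was lost when wild type library 1, 2 or 3 or null library 1, 2 or 5 was left out (1.78 at an adjusted p of 0.072 without wild type library 2, 1.75 and 0.069 without 1, 1.86 and 0.059 without 3, and 1.88, 1.79 and 1.78 at 0.053, 0.068 and 0.069 without null library 1, 2 and 5). Without wild type libraries 2 and 4 together, Csf2 gave 1.77 (adjusted p = 0.15). Il18, an IL-1 family cytokine stored as a precursor, was at 546, 507, 538, 518 and 473 TPM and 951, 912, 1063, 867 and 899.6 TPM (0.91, SE 0.062, adjusted p = 1.2e-09), and its difference was of the same size in naive mice (0.91).

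The 2 cytokine genes with the best known role at this stage were not called. Tnf was at 10113, 6676, 8634, 9223 and 9465 TPM in wild type and 9904, 8957, 5716, 7487 and 6809.5 TPM in null libraries (-0.16, SE 0.16, adjusted p = 0.66). Il1b was at 3719, 2705, 2799, 2769.7 and 2327 TPM and 3131, 2662, 1728, 1941 and 2351 TPM (-0.25, SE 0.16, adjusted p = 0.41). The groups overlapped widely in both, against naive means of 52.96 and 72.2 TPM for Tnf and 18.2 and 23.7 TPM for Il1b. These tests do not show that the genotypes are equal: the 95% intervals of the differences, from the fit's standard errors, ran from -0.46 to 0.15 for Tnf and from -0.55 to 0.054 for Il1b.

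**Figure D3:**
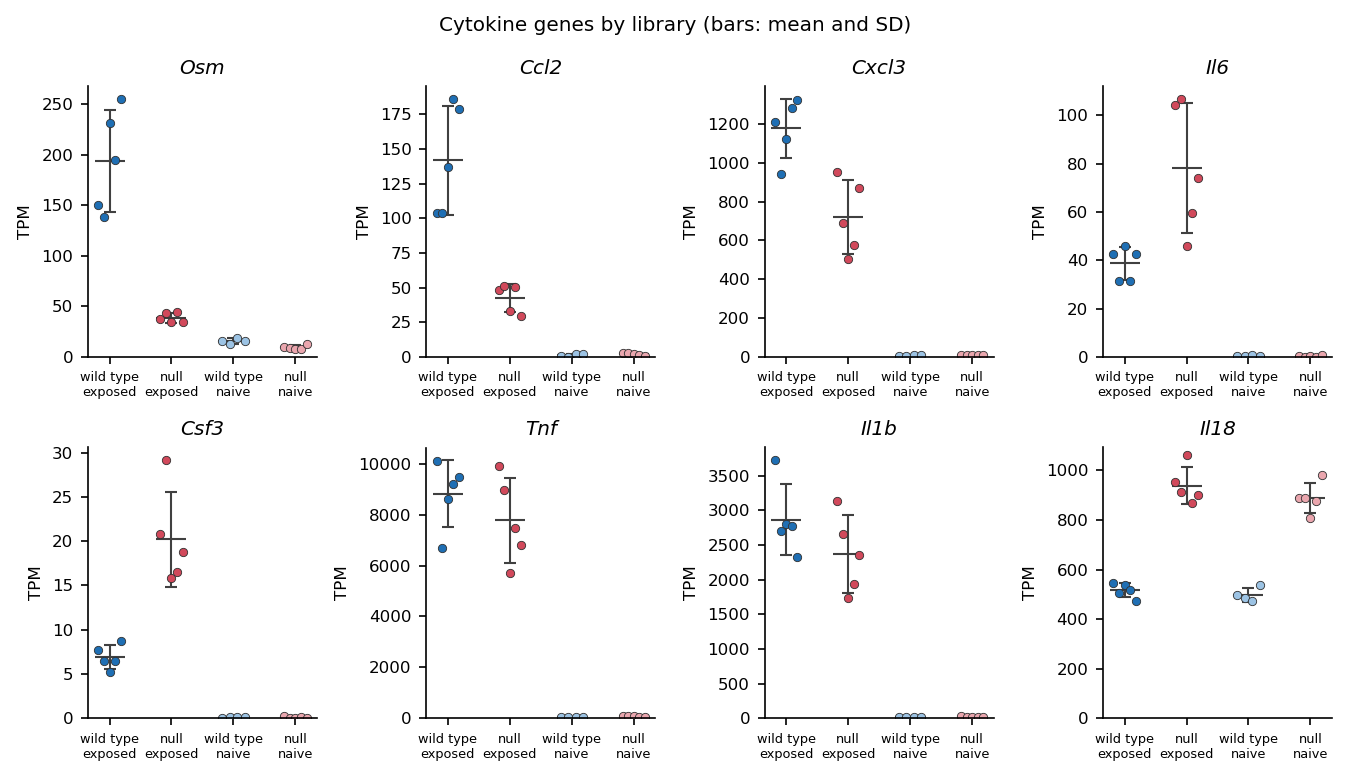
TPM of 8 cytokine genes in each library by genotype and exposure (points are libraries, bars the mean and SD, axes start at 0). In exposed mice Osm and Ccl2 are lower and Csf3 and Il18 higher in every null library, Tnf and Il1b overlap, and the naive values of all but Il18 lie below every exposed value of the same gene.

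Genes of NF-kB signalling and its feedback held 5 higher and 1 lower of 28 tested (median 0.066), or 21.4% called against 8.48% over all genes. Without wild type libraries 2 and 4 they held 2 higher and 1 lower. Ikbke, an inducible kinase of the interferon and NF-kB pathways, was at 14.1, 20.5, 30.5, 28.4 and 29.9 TPM in wild type and 61.5, 60.7, 48.9, 52.4 and 89.1 TPM in null libraries (1.44, SE 0.205, adjusted p = 4.8e-05). Ikbkb, the kinase that releases NF-kB, was lower (119.8 ± 7.39 to 91.5 ± 6.23 TPM, -0.35, SE 0.063, adjusted p = 7.4e-04), and the inhibitor gene Nfkbib higher (0.44). Of 35 immediate-early genes, 4 were higher and 0 lower. That is 11.4% called, near the 12.6% of all genes with a mean of at least 10 TPM. Among the 4 were Dusp5, a phosphatase of ERK (212 ± 17.7 to 277 ± 44.7 TPM, 0.42, SE 0.096, adjusted p = 0.0071), the nuclear factor Csrnp1 (0.47) and Zfp36, which speeds the decay of cytokine mRNAs (0.62). All 3 lost their calls without wild type libraries 2 and 4, where this list held 0 higher and 0 lower. The call of Zfp36 also ended without null library 2 (0.46, adjusted p = 0.051). Dusp5 was lower in naive null mice (-0.54), and the interaction was 0.96 (adjusted p = 0.0015). Neither list had a call in the marker-adjusted fit, where Ikbke gave 1.25 (adjusted p = 0.14).

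Interferon-stimulated genes were mostly not called, with 3 higher and 2 lower of 51, or 9.8%, near the share over all genes. Irf1, a transcription factor induced early by NF-kB and interferon, was at 461, 395, 356, 435 and 396 TPM in wild type and 677, 898, 495, 470.0 and 675 TPM in null libraries (0.69, SE 0.13, adjusted p = 0.0015), without overlap. Naive mice gave -0.25, and the interaction was 0.93 (adjusted p = 0.0405). Irf5 was lower (204 ± 21.2 to 148 ± 30.02 TPM, -0.44, SE 0.12, adjusted p = 0.019), with null library 5 inside the wild type range. Its call was lost without null library 3 (-0.39, adjusted p = 0.055) or 4 (-0.39, adjusted p = 0.056). The same held without wild type libraries 2 and 4 (-0.46, adjusted p = 0.054), without wild type library 5 and null library 3 (-0.38, adjusted p = 0.0898), and in the marker-adjusted fit, where Irf1 kept its call. The list held 1 higher and 0 lower without wild type libraries 2 and 4.

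Receptors that sense and take up bacteria differed in both directions. Marco (ENSMUSG00000026390.8, chromosome 1, 120402267 to 120432753), the class A scavenger receptor that binds unopsonized S. aureus, was at 408, 437, 734, 585 and 781 TPM in wild type and 1558, 1628, 2209, 2002 and 2416 TPM in null libraries, 3.33-fold in means (1.77, SE 0.17, adjusted p = 2.3e-07). Msr1, the other classical member of that class, went the opposite way, from 24.95, 18.9, 14.5, 16.2 and 11.3 TPM in wild type to 2.43, 2.89, 1.36, 2.102 and 1.75 TPM in null libraries (-2.97, SE 0.27, adjusted p = 1.1e-07). Neither gene overlapped, and the naive differences were 2.01 and -2.77. Fcgr1, the high-affinity IgG receptor, was lower (24.9 ± 2.49 to 14.1 ± 2.29 TPM, -0.79, SE 0.102, adjusted p = 1.6e-05). The complement receptor gene Vsig4 did not exceed 1.17 TPM and was higher in null mice (3.04). In all, 3 of 30 phagocytic receptors were higher and 3 lower, or 20% called against 8.48% over all genes. Without wild type libraries 2 and 4 the list held 2 higher and 2 lower. Marco and Msr1 kept their calls with the marker covariates (1 higher and 1 lower), and Fcgr1 and Vsig4 did not.

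Of 33 Toll-like receptor and inflammasome genes, 2 were higher and 2 lower (1 higher and 1 lower without wild type libraries 2 and 4). That is 12.1% called, near the 12.6% of all genes with a mean of at least 10 TPM. Cd14, the coreceptor for bacterial lipids, was at 931, 809, 1019, 899 and 859 TPM in wild type and 1291, 1142, 1211, 977 and 1146 TPM in null libraries (0.39, SE 0.073, adjusted p = 0.0012). Tlr3, a sensor of double-stranded RNA, was low and lower still in null mice (1.95 ± 0.499 to 0.486 ± 0.186 TPM, -2.15, SE 0.3003, adjusted p = 4.1e-05). Complement and coagulation genes held 7 higher and 1 lower of 28, or 28.6% called against 8.48% over all genes (4 higher and 0 lower without wild type libraries 2 and 4). Serpinb2, an inhibitor of plasminogen activators, was at 6.69, 5.22, 6.36, 5.34 and 3.196 TPM and 28.05, 31.7, 16.9, 16.9 and 27.8 TPM (2.21, SE 0.29, adjusted p = 1.4e-05), Procr, the protein C receptor, was higher (10.7 ± 1.75 to 20.95 ± 4.49 TPM), and properdin, Cfp, differed by 0.35. Naive levels of Serpinb2 were 0.0204 and 0.00988 TPM. Tlr3 and Procr kept their calls in the marker-adjusted fit, where the complement list held 1 higher and 0 lower, and Cd14, Serpinb2 and Cfp lost theirs.

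The lysosomal genes that were called were all higher. Of 41 tested, 8 were higher and 0 lower (5 higher and 0 lower without wild type libraries 2 and 4, and 2 higher and 0 lower in the marker-adjusted fit), and 33 had a positive fold change (median 0.103). The share called was 19.5%, against 8.48% over all genes. Ctsk, a cathepsin that degrades collagen, was at 1264, 1135, 932, 1016 and 852 TPM in wild type and 2000.3, 2103, 1605, 1812 and 1675 TPM in null libraries (0.86, SE 0.12, adjusted p = 4.0e-05). Acp5, an acid phosphatase, was at 1010.5, 916, 1282, 1194 and 1096 TPM and 1761, 1846, 1728, 1809.9 and 1975 TPM (0.77, SE 0.098, adjusted p = 1.3e-05). Gpnmb, a membrane glycoprotein of phagolysosomes, was at 293 ± 38.7 and 485 ± 28.2 TPM (0.78, SE 0.085, adjusted p = 1.6e-06). None of the 3 overlapped, and all 3 were also higher in naive null mice (1.501, 0.9001 and 1.19). Ctsk and Gpnmb kept their calls with the marker covariates, and Acp5 did not (0.58, adjusted p = 0.087).

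Within the alveolar macrophage list itself, 9 of 35 genes were higher and 4 lower, or 37.1% called against 8.48% over all genes. Cd2, an adhesion receptor that mouse alveolar macrophages also carry, was at 339, 324, 319, 304 and 297 TPM in wild type and 174, 148, 196, 156 and 144 TPM in null libraries (-0.92, SE 0.08, adjusted p = 6.1e-08). Siglecf was at 200.3, 208, 206, 163 and 153 TPM and 176, 144, 149, 107 and 123 TPM (-0.37, SE 0.1003, adjusted p = 0.025), with overlap, and lost its call without wild type library 1 or 2 or null library 4 or 5 (-0.31, -0.35, -0.29 and -0.33, edgeR adjusted p = 0.073, 0.0599, 0.0697 and 0.067). Apoe, a lipid carrier of the interstitial macrophage list, was higher (104 ± 5.02 to 173 ± 32.2 TPM, 0.78, SE 0.15, adjusted p = 0.0014). Cd2 kept its call in the marker-adjusted fit (4 higher and 1 lower for the alveolar macrophage list), and Siglecf and Apoe lost theirs.

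Genes usually read as neutrophil markers split. Csf3r, the receptor for G-CSF, was at 14.4, 16.9, 18.02, 17.3 and 15.02 TPM in wild type and 63.9, 56.7, 56.4, 47.4 and 49.03 TPM in null libraries (1.78, SE 0.078, adjusted p = 5.6e-13), and naive mice gave 1.73. S100a8 was higher in null mice (16.1, 12.8, 12.5, 33.3 and 14.97 TPM against 26.9, 47.5, 50.1, 38.5 and 28.3 TPM, 1.12, SE 0.26, adjusted p = 0.0071). S100a9, its partner in calprotectin, was lower (6.74, 6.58, 4.65, 19.3 and 3.98 TPM against 1.48, 3.79, 2.27, 2.88 and 4.03 TPM, -1.46, SE 0.43, adjusted p = 0.036), but wild type library 4 stood alone at the top. Without it S100a9 gave -0.87 (adjusted p = 0.196), and leaving out null library 1, 3 or 4 also ended the call (-1.29, -1.37 and -1.45, adjusted p = 0.087, 0.079 and 0.069). Mpo, the granule peroxidase, was at 0 in all wild type libraries and at 1.54, 0.694, 0.102, 0.479 and 0.183 TPM in null libraries. S100a9 also lost its call without wild type libraries 2 and 4 (-0.81, adjusted p = 0.35) and without wild type library 5 and null library 3 (-1.54, adjusted p = 0.055). Among lymphocyte and dendritic genes, Cd3e was not called in the main fit (7.86 ± 1.297 to 5.35 ± 1.33 TPM, adjusted p = 0.076). It was called without null library 4 (-0.61, edgeR adjusted p = 0.039) and with DESeq2 (-0.51, adjusted p = 0.046). Limma on log2(TPM + 1) and log2(TPM + 0.1) called Cd3e too (-0.49 and -0.57, adjusted p = 0.043 and 0.042). Cd24a was lower (-0.501). With the marker covariates Csf3r kept its call, and S100a8, S100a9, Mpo and Cd24a lost theirs.

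Metabolic genes were called in both directions. Nr1h3, the oxysterol receptor LXR alpha, was at 81.8 ± 4.64 TPM in wild type and 130.4 ± 22.2 TPM in null mice (0.71, SE 0.11, adjusted p = 9.9e-05), and Stard4, a sterol carrier, was lower (-0.34). The cholesterol list held 2 higher and 3 lower of 30 (16.7% called, against 8.48% over all genes), yet 25 had a negative fold change (median -0.199). Dgat2, which makes triglyceride, was higher (41.6 ± 6.36 to 88.97 ± 12.99 TPM, 1.13, SE 0.14, adjusted p = 7.7e-06), as was the fatty acid binding gene Fabp5 (0.51), and Pdk4, a brake on pyruvate oxidation, was lower (2.64 to 0.894 TPM, -1.52, SE 0.24, adjusted p = 1.5e-04). In glycolysis, with 3 higher and 4 lower of 29 (24.1% called), Pfkfb3, a driver of the pathway, was at 29.04, 32.8, 32.9, 30.8 and 24.4 TPM and 35.5, 43.997, 43.4, 42.3 and 53.7 TPM (0.605, SE 0.098, adjusted p = 2.4e-04), while Hk1 (-0.64) and the lactate carrier Slc16a3 (-0.27) were lower. Slc16a3 was not called by limma on log2(TPM + 1) or log2(TPM + 0.1) (-0.15 and -0.16, adjusted p = 0.53 and 0.51). Pfkfb3 gave -0.11 in naive mice, and its interaction was 0.71 (adjusted p = 0.032). Hk1 was no longer called without wild type libraries 2 and 4 (-0.58, adjusted p = 0.059), where the glycolysis list held 1 higher and 2 lower and the cholesterol list 1 higher and 2 lower. Of the metabolic genes named, Fabp5 kept its call in the marker-adjusted fit, and Nr1h3, Stard4, Dgat2, Pdk4, Pfkfb3, Hk1 and Slc16a3 lost theirs.

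Stress and lipid mediator genes gave a similar mixture. Of 27 NRF2 targets and metallothioneins, 5 were higher and 2 lower (25.9% called, against 8.48% over all genes), with Gpx3 at 8.64 ± 1.11 and 14.2 ± 1.04 TPM (0.76, SE 0.16, adjusted p = 0.0033) and Mt2 at 1069 ± 235 and 1670.5 ± 288 TPM (0.67, SE 0.16, adjusted p = 0.0076). Sod2, of the mitochondrial defence against superoxide, was higher (0.31), 1 of 13 genes of that list, of which 2 were lower (23.1% called). In the prostaglandin, arginine and itaconate list, 6 were higher and 3 lower of 27 (33.3% called). Hpgds, the prostaglandin D2 synthase of blood cells, was higher, from 4.28 ± 0.75997 to 8.88 ± 0.782 TPM (1.07, SE 0.15, adjusted p = 4.5e-05), and Alox5, which starts leukotriene synthesis, was lower at 109, 79.3, 118, 90.3 and 98.4 TPM against 143, 148, 198, 136 and 134 TPM (-0.58, SE 0.096, adjusted p = 2.9e-04). Pla2g7, which breaks down platelet-activating factor, was higher (1.44). Spp1, or osteopontin, was at 2853, 2156, 1897, 2253 and 1794 TPM in wild type and 1344, 1056, 862, 1138 and 1133 TPM in null libraries (-0.95, SE 0.13, adjusted p = 4.6e-05). With the protease Mmp19 (-0.601) it made up the 2 lower genes of 23 proteases and matrix genes, none of which was higher. That is 8.7% called, near the 8.48% over all genes. Without wild type libraries 2 and 4 the call of Sod2 was lost (0.28, adjusted p = 0.069), and the NRF2 and the prostaglandin lists held 3 higher and 0 lower and 3 higher and 2 lower. Gpx3, Hpgds, Alox5 and Mmp19 kept their calls with the marker covariates, and Mt2, Sod2, Pla2g7 and Spp1 (-0.603, adjusted p = 0.23) did not.

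Apoptosis genes held 5 higher and 1 lower of 24, or 25% called against 8.48% over all genes (2 higher and 0 lower without wild type libraries 2 and 4). Ripk3, the necroptosis kinase, was at 10.98 ± 0.838 and 17.2 ± 1.31 TPM (0.66, SE 0.11, adjusted p = 3.7e-04), and Bcl2l11, the proapoptotic BIM, and the survival gene Bcl2a1b were higher (0.51 and 0.39). Near-identical Bcl2a1 copies may share reads. Of 37 cell cycle genes, 2 were higher and 2 lower, with E2f1 (-0.35) and Mcm6 (-0.56) lower and the inhibitor Cdkn1b higher (0.47). That is 10.8% called, near the shares of all genes (8.48%) and of those with a mean of at least 10 TPM (12.6%). Heat shock and unfolded protein genes (2 higher and 0 lower of 25, 8% called) were near the 8.48% over all genes. Below it were ribosomal proteins (2 and 1 of 50, 6%), nuclear genes of oxidative phosphorylation (1 and 1 of 36, 5.56%, with Uqcrq higher at 0.62) and circadian and glucocorticoid genes (1 and 0 of 21, 4.76%). None of 13 mitochondrially encoded genes was called by edgeR or DESeq2, and 3 had an unadjusted p under 0.05. All 13 had a negative fold change (median -0.28), and the median was 0.37 in the marker-adjusted fit. Genes chosen because inbred lines are known to differ in them held 2 higher and 4 lower of 24 (25% called). They include Entpd4 and Entpd4b (-0.56 and -0.51), near-identical neighbours whose reads may be split between them. Bcl2a1b and Cdkn1b lost their calls without wild type libraries 2 and 4 (0.32 and 0.42, edgeR adjusted p = 0.066 and 0.095). Ripk3 kept its call with the marker covariates, and Bcl2l11, Bcl2a1b, E2f1, Mcm6, Cdkn1b, Uqcrq, Entpd4 and Entpd4b lost theirs.

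**Figure D4:**
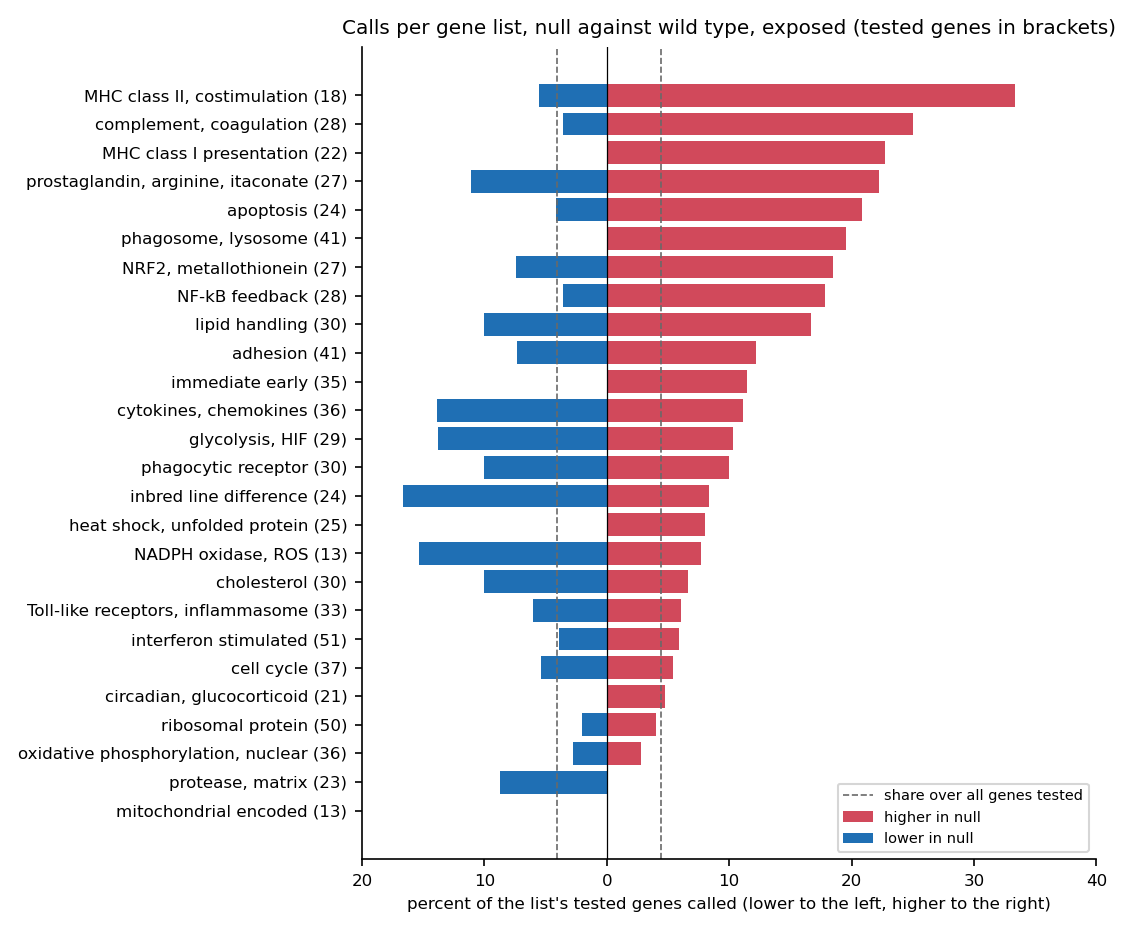
Percent of tested genes in each list called higher (right) or lower (left) in exposed null mice, with the number tested in brackets and dashed lines at the shares over all genes (4.43% higher, 4.04% lower). MHC class II genes have the highest share called higher, and the mitochondrially encoded list has none called.

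Much of the difference was already present without bioparticles. In naive mice 1406 genes (6.86%) were called between the genotypes, and 804 genes were called with the same sign in both conditions, 46.3% of the exposed calls and 57.2% of the naive calls, with 7 of opposite sign. Of the 927 exposed calls that were not called in naive mice, 713 had the same sign there. The test of the difference between both contrasts called 68 genes (0.332%), 50 of them among the exposed calls.

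Among genes shared by both conditions, Aass (7.28 in naive mice), Spic (6.16), Slc22a4 (5.91), Skint3 (-6.25), Coro2b (-5.49), Fn1 (-1.63), Cd74 (2.27) and H2-Ab1 (2.33) were called in the naive contrast too. Genes called by the direct test, chosen here after their values were seen, included Samd11, Pts and Ereg. Samd11, a nuclear protein gene, was lower in exposed null mice (19.4, 21.3, 17.2, 16.3 and 12.2 TPM in wild type, 4.57, 5.86, 2.09, 3.51 and 4.45 TPM in null, -2.03, SE 0.34, adjusted p = 4.0e-04) and higher in naive null mice (0.57001 to 3.44 TPM, 2.703), an interaction of -4.74 (adjusted p = 2.0e-04). Pts, an enzyme of tetrahydrobiopterin synthesis, was at 21.5, 34.5, 31.4, 28.4 and 22.5 TPM in wild type and 63.6, 73.7, 68.7, 57.6 and 74.9 TPM in null libraries after exposure (1.39, SE 0.0999, adjusted p = 2.9e-09), and at 44.1 and 42.9 TPM in naive mice (-0.34), an interaction of 1.73 (adjusted p = 7.8e-07). Ereg, an EGF receptor ligand, was at 191, 216, 147, 122 and 93.8 TPM and 68.9, 49.95, 23.03, 30.2 and 32.2 TPM after exposure (-1.87, SE 0.296, adjusted p = 1.9e-04), against naive means of 0.547 and 1.06 TPM, an interaction of -2.698 (adjusted p = 0.018). Pts kept its exposed call in the marker-adjusted fit, and Samd11 and Ereg lost theirs.

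**Figure D5:**
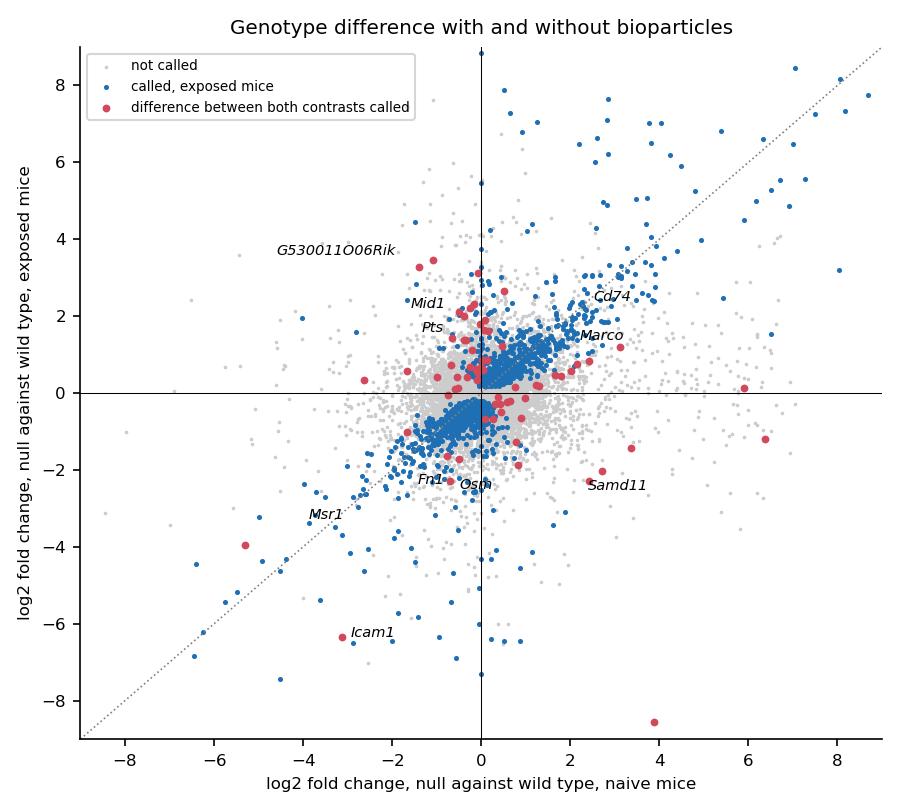
Log2 fold change of null against wild type in naive (horizontal) and exposed mice (vertical) for genes tested, with 4 genes outside the plotted range of 9, the dotted line marking equal differences. Blue genes were called in exposed mice and red genes in the test of the difference between both contrasts, such as Icam1 and Osm below the line and Pts above it, while Cd74, Marco, Fn1 and Msr1 lie near it.

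Calls were spread over the genome. On chromosome 9, which carries Icam1, 12.2% of tested genes were called, close to chromosomes 4 (11.9%) and 6 (11.2%). Within 10 Mb of Icam1, 18 of 152 tested genes were called (11.8%), against 120 of 987 (12.2%) on the rest of that chromosome. Both shares lay above the 8.48% over all genes tested, and the rest of the chromosome includes the windows next to this neighbourhood. The 10 Mb windows that start at 20, 30, 40 and 50 Mb of chromosome 9 had 14.2, 18.5, 14.8 and 17.2% called. Those that start at 0 and 10 Mb had 0 and 8.11%, and those from 60 Mb on had 5.95 to 18%. What lies behind these shares was not tested. In consecutive windows of 10 Mb with at least 20 tested genes, 5 of 251 reached 20%, among them 130 to 140 Mb of chromosome 4 with 41 of 175 genes (23.4%, and 18.9% in naive mice).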

How the data were processed

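The deposited tables hold estimated counts, whole numbers not scaled for depth by the authors, and TPM, scaled by the authors to 1 total per library, for 56941 genes. Build GRCm39 and the tools STAR and StringTie (version 2) are listed in the submitters' processing notes, and gene coordinates are those of the deposited tables. No label states the strand setting or the counting options, so reads of overlapping or near-identical genes may be shared between them. Per the labels' protocols, libraries were poly(A) selected and read as pairs of 150 bases, with 20 M planned.

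Estimated counts were tested with edgeR 4.0.16 (R 4.3.3): quasi-likelihood F test, two-sided, TMM, filterByExpr (minimum count 10, total 15), 20501 genes, all 19 libraries with 1 mean per group, and Benjamini-Hochberg adjustment over all genes. The naive and interaction contrasts came from the same fit. SE is that of the log2 fold change, and ± is the SD. A group at 0 was given a floor of 12 estimated counts per library (3 fragments at an assumed 4 counts each), which covers counting error only. In simulated counts for the exposed contrast (20501 genes, 200 changed), 88% of 2-fold and 98% of 4-fold changes were recovered, with 4 false calls. The changed genes were drawn only from genes above a minimum mean count, so recovery at low level was not measured. Counts were drawn from the fit's own model with no other group difference, so the false calls say nothing of other sources of spread.

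The members, the 37 lists and the tests were chosen with earlier results of these data known. Genes were named by rule: the 12 highest and 12 lowest log2 fold changes among called genes whose higher group averaged 1 TPM or more and whose libraries did not overlap (predicted genes excluded), the 3 members of each list with the smallest p, the ICAM-1 family and receptors, and defining cell markers. Of 143 genes that the rule named, 101 have fitted values in the text and the others are counted in their lists. A further 30 genes of the text fall outside the rule and were chosen after their values were seen. The group of exposed libraries held no identical pair (lowest chi-square per gene 7.46 on counts divided by 4). Alternatives were DESeq2 1.42.0, RLE scaling, no low-count filter, limma 3.58.1 on log2(TPM + 1) and log2(TPM + 0.1), the exposed libraries alone, a replicate block, marker covariates and leaving libraries out.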

Additional observations from a re-analysis of the deposited data

Results flagged for a closer look

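In each group of 5 exposed libraries, the gap between the end library and its neighbour was compared with Dixon's 95% critical value, for the genes in the text and the marker sums. Chance marks about 1 in 20 groups (5%), and 17 libraries stood out over 284 groups. In wild type mice these were the highest value of Apoc2 (0.304 TPM), Kcnj15 (1.42 TPM), H2-DMb1 (132 TPM), Alox5 (198 TPM), S100a8 (33.3 TPM), S100a9 (19.3 TPM) and Scgb1a1 (2525 TPM), the lowest of Itgad (4.87 TPM), Vcam1 (0.759 TPM) and Cep85 (533 TPM), and the highest summed level of dendritic (726 TPM) and endothelial and stromal markers (61.8 TPM). In null mice they were the highest value of Jph1 (0.216 TPM), H2-Eb1 (618 TPM), H2-DMb1 (248 TPM), H2-K1 (2981 TPM) and Irf5 (200.5 TPM). The 3 MHC values belong to null library 2.

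For 13 genes of the text, edgeR's test of the difference between the exposed and the naive genotype contrast had an adjusted p under 0.05. The difference was lower in exposed mice for Icam1 (-3.21), Osm (-1.61), Cxcl3 (-1.55), Samd11 (-4.74) and Ereg (-2.698). It was higher in exposed mice for Ppfia4 (1.35), Dusp5 (0.96), Irf1 (0.93), Pfkfb3 (0.71), Pts (1.73), Mid1 (2.59), G530011O06Rik (4.68) and Gm15726 (3.198), all on the log2 scale.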

How the results depend on the processing

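Of 121 called genes in the text, 56 kept call and direction in every setting, 121 under RLE scaling, 119 with DESeq2, 120 with limma on log2(TPM + 1), 108 without wild type libraries 2 and 4 (a setting chosen after seeing the data, as was leaving out wild type library 5 and null library 3, where 116 did), 107 with neutrophil and T and NK covariates and 56 with epithelial and red cell covariates. The exposed contrast gave 1738 calls, 1727 with RLE, 2184 with DESeq2, 1547 and 1502 with limma, 1413 without the filter, 1237 in the exposed libraries alone and 1489 without wild type library 5 and null library 3. It gave 351 calls with epithelial and red cell covariates, 1132 with neutrophil and T and NK covariates, 1091 without wild type libraries 2 and 4, and 1441 to 1673 without 1 library. The naive contrast (1406) gave 819 with neutrophil and T and NK covariates, and 1072 to 1360 without 1 library. Calls shared by both contrasts with the same sign (804) came to 271 and 517 with the epithelial and the neutrophil covariates, and to 690 to 797 without 1 library. The interaction (68) gave 38 without the filter, 240 with DESeq2, 110 with limma on log2(TPM + 1), 29 and 43 with the epithelial and the neutrophil covariates, and 34 (without wild type naive replicate 1) to 82 without 1 library. For these changes the cause was not tested.

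With the replicate number as a block nested in exposure (replicate block), the exposed contrast gave 1806 calls and the interaction 38. Same-numbered libraries of both genotypes hardly deviated together (correlations of -0.007 to 0.046), and pairs with unlike numbers gave -0.047 to 0.066. Even so, 3 of 5 wild type libraries correlated best with their own number, so these values do not exclude a pairing. The numbers were not taken to pair mice because the labels attach no litter or day to them. Signs changed for genes near 0 or at low level. Icam2 gave 0.010 with limma on log2(TPM + 0.1), 0.026 with the block, 0.70 and 0.15 with the epithelial and the neutrophil covariates, 0.33 without wild type library 5 and null library 3, and between -0.28 and 0.26 without 1 library. Itgam gave 0.52 with epithelial covariates, 0.16 without wild type libraries 2 and 4, and between -0.36 and 0.056 without 1 library. With the epithelial and red cell covariates, which hold these genes or genes like them, Alas2 gave 0.37, Hba-a1 0.17 and Hbb-bs 0.25, and Il1b and Tnf, not called in either fit, gave 0.15 and 0.34. Depth limits the calls at low level: genes under 1 TPM rest on few fragments.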

Other observations

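Several differences concern genes with near-identical copies or close neighbours, chosen here after their values were seen. Rplp0, a ribosomal protein gene, was at 1658, 1733, 1746, 1636 and 1598 TPM in exposed wild type and 1086, 1049.5, 1118, 1038 and 1082 TPM in exposed null libraries (-0.59, SE 0.05, adjusted p = 4.3e-08), a difference in means of -599.6 TPM. The predicted gene Gm8730 (ENSMUSG00000063696.8, chromosome 8, 103591477 to 103592430) was at 65.5, 70.7, 62.3, 71.2 and 67.3 TPM and 652, 647, 749.8, 662 and 758 TPM (3.397, SE 0.082, adjusted p = 4.1e-17), a difference of 626 TPM. Ndufs5, a subunit of respiratory complex I, was likewise lower in null mice (97.5, 101, 91.7, 88.1 and 93.4 against 40.8, 39.2, 47.1, 48.1 and 51.8 TPM, -1.03, SE 0.091, adjusted p = 7.8e-08), while its pseudogene Ndufs5-ps (ENSMUSG00000081824.6, chromosome 16, 42775994 to 42776312) was higher (9.63, 6.74, 5.73, 8.46 and 12.6 against 77.05, 75.2, 92.5, 90.5 and 88.6 TPM, 3.31, SE 0.21, adjusted p = 2.7e-10). No library overlapped in any of the 4 genes, and naive mice gave -0.68, 3.396, -1.45 and 3.14. Whether reads of the genes and their copies were exchanged in counting was not tested.

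Sh3bgrl3 on chromosome 4 was at 674, 761, 836, 768 and 760.3 TPM in wild type and 247, 258, 312, 281 and 250.5 TPM in null libraries (-1.46, SE 0.074, adjusted p = 9.3e-12). Cep85, which begins 1069 bases from its end, was at 533, 1553, 1536, 1729.8 and 1404 TPM and 248, 184, 219, 202 and 323 TPM (-2.16, SE 0.26, adjusted p = 5.3e-06), and wild type library 1 stood below the other wild type libraries. Both lie in the window of chromosome 4 with many calls. Near Icam1, Raver1 (ENSMUSG00000010205.12, chromosome 9, 20985454 to 21003304) was at 15.5, 5.88, 28.1, 11.2 and 16.9 TPM in exposed wild type and 4.54, 1.82, 4.34, 0.853 and 1.68 TPM in exposed null libraries (-2.52, SE 0.396, adjusted p = 1.7e-04), against 22.5 and 21.4 TPM in naive mice (-0.0054, interaction -2.51, edgeR adjusted p = 0.054).

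Transcripts annotated at the end of the X chromosome were higher in exposed null mice and low in naive mice of both genotypes. G530011O06Rik (ENSMUSG00000072844.7, chromosome X, 168758039 to 168761913) was at 19.5, 10.6, 9.92, 14.2 and 17.5 TPM in wild type and 225, 161, 139.6, 139.8 and 31.5 TPM in null libraries (3.29, SE 0.39, adjusted p = 5.3e-06), with naive means of 2.85 and 1.04 TPM. Gm15726 (ENSMUSG00000087263.2, chromosome X, 168762043 to 168768228) was at 19.1, 19.1, 14.2, 12.4 and 11.2 TPM and 196, 141, 82.4, 192 and 33.2 TPM (3.12, SE 0.37, adjusted p = 5.2e-06). Mid1 (ENSMUSG00000035299.17, chromosome X, 168468195 to 168788732), which encodes a ubiquitin ligase, was at 16.6, 26.8, 27.7, 28.3 and 16.9 TPM and 142, 106, 67.5, 125 and 23.5 TPM (2.101, SE 0.32, adjusted p = 1.0e-04), and null library 5 lay inside the wild type range. Gm21860, annotated on the Y chromosome, was at 1.77, 16.1, 10.6, 8.75 and 4.28 TPM and 175, 125, 93.7, 326 and 23.3 TPM (4.24, SE 0.55, adjusted p = 1.5e-05) in these mice, which the labels give as female. Copies of this stretch on both sex chromosomes may share reads. Null library 5 was the lowest null library for each of the 4.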
